A study of Mus musculus with 24 samples.

Results

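Als2cl (ENSMUSG00000044037.15) is 1 of the 48985 gene identifiers in the count table of this series, and its reads are described here allele by allele in all 24 libraries. It was chosen by its measured values, since its CAST counts were lower in the recombined clones than in their parental lines. The clone against parental values of Als2cl therefore carry no test here and support nothing by themselves. The cells were F121/9 female mouse embryonic stem cells, an F1 hybrid with 1 genome from 129/Sv mice and 1 from CAST/EiJ mice, so that reads over strain variants can be assigned to an allele. They were grown without serum in 2i+LIF medium, which holds the MEK inhibitor PD0325901, the GSK-3β inhibitor CHIR99021 and leukemia inhibitory factor.

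Each of 5 recombinations (d3, d6, i7, i12 and i10) had a parental line, whose genotype is given as control, and 1 or more clones, whose genotype is given as recombined. The clones were 12 and 21 for d3, 16 for d6, 7 and 12 for i7, 10 for i12 and 18 for i10. All 12 lines were sequenced in 2 replicates, described as biological, and all were derived from the same hybrid line. What the letters d and i stand for, and which bases were recombined in each clone, are not given in the sources used here. Each recombined line is 1 clone, so in d6, i12 and i10 the recombination and features of the clone cannot be told apart. The comparisons ask whether recombination was accompanied by a change in expression.

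The protein encoded by Als2cl carries a VPS9 domain, the catalytic fold of exchange factors that load the small GTPase Rab5 with GTP. Rab5 marks early endosomes and directs their fusion and traffic, and Als2cl protein binds Rab5.

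In GENCODE M21 (GRCm38), Als2cl is a protein-coding gene on the plus strand of chromosome 9, from 110879870 to 110900530, with 8 annotated transcripts, of which 4 are protein coding. Its merged exons span 5883 bases. The 300 bases around its RefSeq start, chr9:110879924-110880223 in GRCm38.p6 on the plus strand, are shown because the results turn on the RNA level of this gene. They run from 250 bases before the start to 50 bases after it, and capitals mark GC boxes (GGGCGG, searched on both strands as GGGCGG and CCGCCC).

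Als2cl promoter: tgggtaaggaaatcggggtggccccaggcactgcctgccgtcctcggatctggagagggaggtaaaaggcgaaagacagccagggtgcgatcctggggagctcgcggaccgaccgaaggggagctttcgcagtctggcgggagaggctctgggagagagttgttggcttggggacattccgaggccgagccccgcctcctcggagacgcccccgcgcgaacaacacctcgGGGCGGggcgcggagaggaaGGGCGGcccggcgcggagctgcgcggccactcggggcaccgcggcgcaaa

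The window holds 2 GC boxes, both on the plus strand, and 35.7% of the 32851 mouse promoters of the same length hold at least 1 on either strand. It holds 33 CpG dinucleotides, more than 91.4% of those promoters (median 7), and its GC content is 70% against a median of 52.7%. Neither CCAAT (or its reverse ATTGG) nor TATAAA (or TTTATA) occurs in it, and 37.4% and 13.6% of promoters hold these words. The promoter window of Tmie, a gene on the opposite strand that encodes a membrane protein of inner ear hair cells, covers 200 of the same 300 bases.

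Counts over both alleles ran from 3286819 to 15581094 per library, and the CAST allele held 47.6% to 50.5% of all counts of a library. The 11 stem cell markers examined, Pou5f1, Sox2 and Nanog among them, all had a median over 10 CPM (counts scaled by the normalised library total over both alleles). Summed CPM was 1.17 to 8.53 in parental and 1.56 to 7.68 in clone libraries for 6 primitive endoderm markers, 52.0 to 126 and 50.8 to 150 for 5 trophoblast markers (mostly Tfap2c), 7.07 to 50.7 and 7.09 to 45.3 for 3 mesendoderm markers, 29.8 to 70.6 and 33.3 to 79.4 for 3 neural markers (mostly Nes), and 3.83 to 22.4 and 5.32 to 25.7 for 6 fibroblast markers (mostly Thy1). Of these markers of other cell types, Twist2 was at 0 in every library. Their part in the values of Als2cl was not tested. In bulk samples, fewer cells with a transcript and less transcript per cell cannot be told apart.

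Als2cl RNA came from both alleles in the parental lines and mainly from the 129S1 allele in all 7 clones. The CAST share of Als2cl counts was 36.4% to 51.9% (median 45.7%) in the 10 parental libraries and 4.55% to 29.7% (median 14.3%) in the 14 clone libraries. No clone library reached the lowest parental library. The 129S1 level ranged from 7.04 to 18.2 CPM in parental and from 3.79 to 16.1 CPM in clone libraries, so that the ranges of this allele overlapped. Intervals are 95% Wilson intervals of a share, which cover counting error only.

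**Figure D1:**
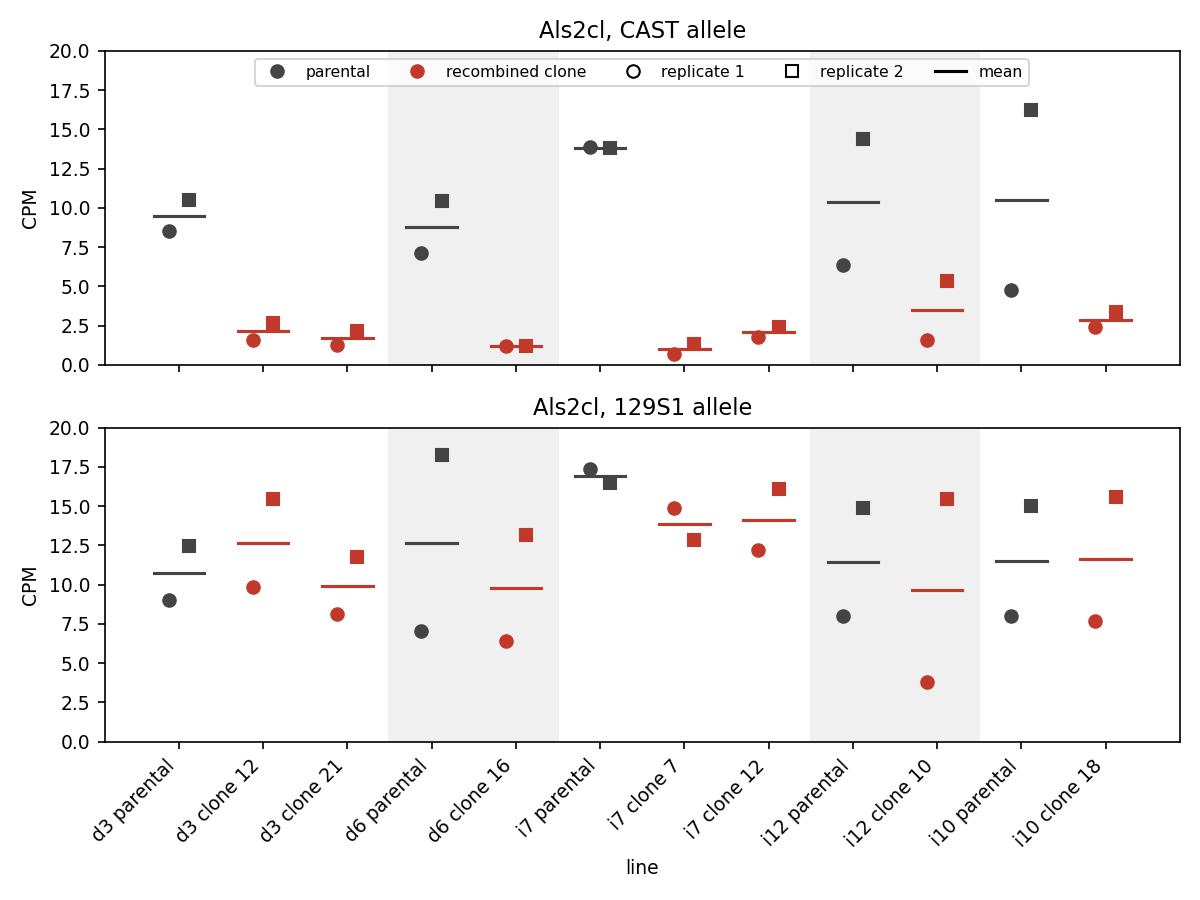
Level of Als2cl in CPM from the CAST allele (upper panel) and the 129S1 allele (lower panel) in each of the 24 libraries, with a line at the mean of each group of 2 replicates. CAST levels of the clones lie between 0.708 and 5.31 CPM, below the parental line of the same recombination in every case, whereas 129S1 levels of clone and parental libraries overlap in 5 of 7 clones. The share of all genes whose clone and parental 129S1 levels do not overlap was not computed.

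In d3, the parental line had 102 and 99 CAST counts beside 108 and 117 129S1 counts, and its CAST share was 48.6% (interval 41.9% to 55.3%) and 45.8% (39.3% to 52.5%). d3 clone 12 had 24 and 29 CAST counts beside 147 and 169 129S1 counts, a share of 14.0% (9.62% to 20.03%) and 14.6% (10.4% to 20.2%). d3 clone 21 had 15 and 25 CAST counts beside 98 and 136 129S1 counts, a share of 13.3% (8.21% to 20.8%) and 15.5% (10.7% to 21.9%). Both clones lay below the parental line in both replicates, and none of their intervals met a parental interval. The CAST level was 9.50 ± 1.43 CPM in the parental line, 2.13 ± 0.738 in d3 clone 12 and 1.70 ± 0.652 in d3 clone 21 (SD, n = 2 each), 4.46-fold and 5.58-fold lower in the clones. The 129S1 level was 10.7 ± 2.43, 12.7 ± 3.96 and 9.94 ± 2.59 CPM in the same order (SD, n = 2 each), and these libraries overlapped.

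In d6, the parental line had 69 and 67 CAST counts beside 68 and 117 129S1 counts, a share of 50.4% (42.1% to 58.6%) and 36.4% (29.8% to 43.6%). d6 clone 16 had 16 and 11 CAST counts beside 86 and 118 129S1 counts, a share of 15.7% (9.89% to 23.97%) and 8.53% (4.83% to 14.6%). The replicates of this recombination lay further apart than those of d3 in both lines, and the clone was still the lower in every library. The CAST level was 8.79 ± 2.33 CPM in the parental line and 1.21 ± 0.0204 in d6 clone 16, 7.27-fold lower, and the 129S1 level was 12.6 ± 7.91 and 9.77 ± 4.74 CPM (SD, n = 2 each).

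In i7, the parental line had 107 and 155 CAST counts beside 134 and 185 129S1 counts, a share of 44.4% and 45.6%. i7 clone 7 had 6 and 19 CAST counts beside 126 and 184 129S1 counts, a share of 4.55% (2.10% to 9.56%) and 9.36% (6.07% to 14.2%). i7 clone 12 had 18 and 31 CAST counts beside 126 and 209 129S1 counts, a share of 12.5% and 12.9%. The library with 6 CAST counts was the lowest of the 24 in CAST share and in CAST level. The CAST level was 13.8 ± 0.0600 CPM in the parental line, 1.02 ± 0.438 in i7 clone 7 and 2.06 ± 0.456 in i7 clone 12 (SD, n = 2 each), 13.6-fold and 6.70-fold lower. The 129S1 level was 16.9 ± 0.648, 13.9 ± 1.43 and 14.1 ± 2.76 CPM (SD, n = 2 each). In i7 alone, both replicates of each clone also lay below both parental replicates on this allele. The share of all genes that separate so on 129S1 was not computed.

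i12 and i10 had the fewest reads and the widest intervals. The i12 parental line had 27 and 59 CAST counts beside 34 and 61 129S1 counts, a share of 44.3% (32.5% to 56.7%) and 49.2% (40.4% to 58.0%). i12 clone 10 had 11 and 23 CAST counts beside 26 and 67 129S1 counts, a share of 29.7% (17.5% to 45.8%) and 25.6% (17.7% to 35.4%). The shares of i12 clone 10 were the highest of any clone, and the intervals of both its replicates met that of parental replicate 1. The CAST level was 10.4 ± 5.67 CPM in the parental line and 3.46 ± 2.62 in i12 clone 10 (SD, n = 2 each), 3.00-fold lower, with replicate 1 below replicate 2 in both lines. The 129S1 level was 11.4 ± 4.85 and 9.63 ± 8.27 CPM (SD, n = 2 each).

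The i10 parental line had 25 and 55 CAST counts beside 42 and 51 129S1 counts, a share of 37.3% (26.7% to 49.3%) and 51.9% (42.5% to 61.2%). i10 clone 18 had 10 and 17 CAST counts beside 32 and 79 129S1 counts, a share of 23.8% (13.5% to 38.5%) and 17.7% (11.4% to 26.5%). The clone shares lay below both parental shares, with overlapping intervals for replicate 1. The CAST level was 10.5 ± 8.10 CPM in the parental line and 2.88 ± 0.666 in i10 clone 18 (SD, n = 2 each), 3.64-fold lower, and the 129S1 level was 11.5 ± 4.99 and 11.6 ± 5.56 CPM (SD, n = 2 each).

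**Figure D2:**
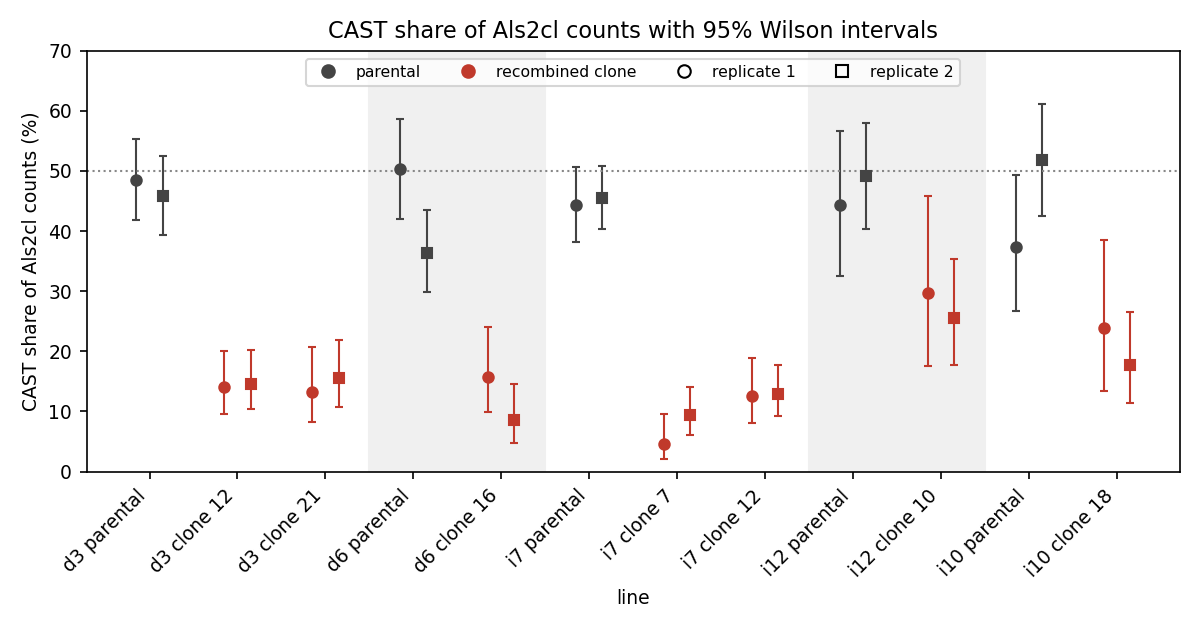
CAST share of Als2cl counts in percent in each library, with 95% Wilson intervals, a dotted line at equal shares, and circles and squares for replicates 1 and 2. The 14 clone libraries lie between 4.55% and 29.7% and the 10 parental libraries between 36.4% and 51.9%.

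Ordered by mean CAST share, the clones ran from i7 clone 7 at 6.95% ± 3.40 through d6 clone 16 at 12.1% ± 5.06, i7 clone 12 at 12.7% ± 0.295, d3 clone 12 at 14.3% ± 0.432, d3 clone 21 at 14.4% ± 1.59 and i10 clone 18 at 20.8% ± 4.31 to i12 clone 10 at 27.6% ± 2.95 (SD, n = 2 each). Neighbours in this order overlapped between i7 clone 7 and d6 clone 16, between d6 clone 16 and i7 clone 12, and between the d3 clones. The parental lines followed at 43.4% ± 9.87 in d6, 44.6% ± 10.3 in i10, 44.99% ± 0.841 in i7, 46.7% ± 3.47 in i12 and 47.2% ± 1.94 in d3 (SD, n = 2 each), and the replicates of each overlapped with those of the next. A gap from 29.7% to 36.4% separated clone from parental libraries.

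The fitted change of the allelic ratio (129S1 over CAST, log2, clone minus parental) was 2.41 (SE 0.301) for d3 clone 12, 2.38 (SE 0.320) for its sister clone 21 and 2.47 (SE 0.358) for the d6 clone. For i7 it was 3.35 (SE 0.331) with clone 7 and 2.48 (SE 0.296) with clone 12, and it was 1.28 (SE 0.399) for the i12 clone and 1.78 (SE 0.410) for the i10 clone. A positive value means a larger 129S1 part, and all 7 were positive. Among the 10795 genes averaging 10 or more counts on each allele, Als2cl stood 7th, 8th, 8th, 2nd, 3rd, 102nd and 17th from the top in the same order. The fitted log2 change of the CAST level itself was -2.16, -2.47, -2.84, -3.69, -2.73, -1.65 and -1.81 in the same order. That of the 129S1 level was 0.24, -0.10, -0.36, -0.29, -0.26, -0.30 and 0.05, each smaller in size than its SE. These 129S1 values were unstable: leaving out 1 library took them to between -0.08 and 0.55 for d3 clone 12, -0.37 and 0.18 for d3 clone 21, -0.95 and 0.43 for the d6 clone, -1.63 and 0.44 for the i12 clone and -0.56 and 0.56 for the i10 clone. In the i7 clones they stayed below 0, at -0.40 to -0.21 with clone 7 and -0.51 to -0.09 with clone 12. Leaving out the second i10 parental replicate took the i10 values to -0.71 in CAST level and 1.27 in the ratio.

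Added over both alleles, Als2cl was lower in the mean of every clone. The total level was 20.2 ± 3.86 CPM in the d3 parental line, 14.8 ± 4.70 in d3 clone 12 and 11.6 ± 3.24 in d3 clone 21 (SD, n = 2 each). It was 30.7 ± 0.708 CPM in the i7 parental line, 14.9 ± 0.989 in i7 clone 7 and 16.2 ± 3.21 in i7 clone 12 (SD, n = 2 each). The remaining clones were at 51.3% (d6 clone 16), 60.1% (i12 clone 10) and 66.0% (i10 clone 18) of the mean of their parental line. Clone and parental replicates did not overlap in total level for d3 clone 21 and the i7 clones, and overlapped for the other 4. The share of all genes that separate so in total level was not computed. In CAST level, both clone replicates lay below both parental replicates for 8.09% (i10 clone 18) to 24.1% (i7 clone 12) of genes. Without i10 parental replicate 2 the fitted total change of i10 clone 18 went from -0.57 to 0.20. The fitted log2 change of the total ran from -1.05 in i7 clone 7 to -0.45 in d3 clone 12, with SEs of 0.537 to 0.571.

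Comparisons between clones and between parental lines were tested with edgeR's quasi-likelihood test, with p adjusted over all genes by Benjamini-Hochberg. They use the same libraries from which the gene was chosen, so they are not independent of that choice. The 95% intervals use 12 residual degrees of freedom, fewer than the test, so an interval can include 0 at an unadjusted p under 0.05. Between the d3 clones, the log2 ratio of Als2cl differed (clone 21 minus clone 12) by -0.02 (SE 0.399, 95% interval -0.89 to 0.84, adjusted p = 1), where 3.26% of genes were called at an adjusted p under 0.05. Between the i7 clones, the difference (clone 12 minus clone 7) was -0.87 (SE 0.405, 95% interval -1.75 to 0.02), and the CAST shares of their replicates did not overlap. The share of all genes that separate so between these clones was not computed. The difference in ratio did not pass the threshold (edgeR adjusted p = 0.713, unadjusted p = 0.0454, with 2.38% of genes called). In CAST level the differences were -0.31 (95% interval -1.58 to 0.97, adjusted p = 1) for d3 and 0.96 (-0.39 to 2.32, adjusted p = 0.782) for i7 in the same test. In 129S1 level they were -0.34 and 0.03 (edgeR adjusted p of 1 and 0.999).

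The 5 parental lines, compared in 10 pairs, gave the background between lines that were not recombined. The log2 ratio of Als2cl differed by -0.26 to 0.27 over the pairs, and 0 of 10 were called (lowest edgeR adjusted p = 0.791, 0 pairs at an unadjusted p under 0.05). The share of all genes called was 0.584%, 0.426%, 1.37% and 0.63% for d3 against d6, i7, i12 and i10, 0.398%, 0.167% and 0.0185% for d6 against i7, i12 and i10, 0.315% and 0.195% for i7 against i12 and i10, and 0.0278% for i12 against i10. The CAST level differed by -0.66 to 0.44 (lowest adjusted p = 0.522) and the 129S1 level by -0.66 to 0.58 (lowest adjusted p = 0.463) in edgeR's test, and none of these pairs was called either, with 0 at an unadjusted p under 0.05. The i7 parental line had the highest mean Als2cl level on both alleles.

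Replicate 2 was above replicate 1 on both alleles of Als2cl in 10 of the 12 lines, the exceptions being the i7 parental line and i7 clone 7. In i10 the parental CAST level was 4.75 CPM in replicate 1 and 16.2 in replicate 2, and in i12 clone 10 it was 1.60 and 5.31. The CAST share, in which a shift common to both alleles cancels, was 29.7% and 25.6% in i12 clone 10 and had an SD of 0.295 to 5.06 percentage points in the clones.

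The trait that chose Als2cl is described here over all genes, and nothing is read from its place among them. Of 10795 genes, 1 (0.00926%), Als2cl itself, had a CAST level in both clone replicates below both parental replicates in all 7 clones. In single clones that held for 11.4% (d3 clone 12), 12.4% (d3 clone 21), 8.36% (the d6 clone), 12.9% (i7 clone 7), 24.1% (i7 clone 12), 9.82% (the i12 clone) and 8.09% (the i10 clone) of genes. Als2cl was likewise the 1 gene with a log2 ratio higher by at least 1 in every clone, which restates the choice. The gene next in order of its smallest change was Parp3 on chromosome 9 (106470322 to 106476949), with a smallest value of 0.27 and means of 17.2 CAST and 10.1 129S1 counts. In the other direction 0 genes had a ratio lower by at least 1 in every clone, and Gm44560 on chromosome 7 (59286052 to 59289166) came closest, at -1.61 to -0.73 with means of 13.8 CAST and 11.0 129S1 counts. The 2 d3 clones share their parental libraries, as do the 2 i7 clones, so these 7 comparisons are not independent.

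**Figure D3:**
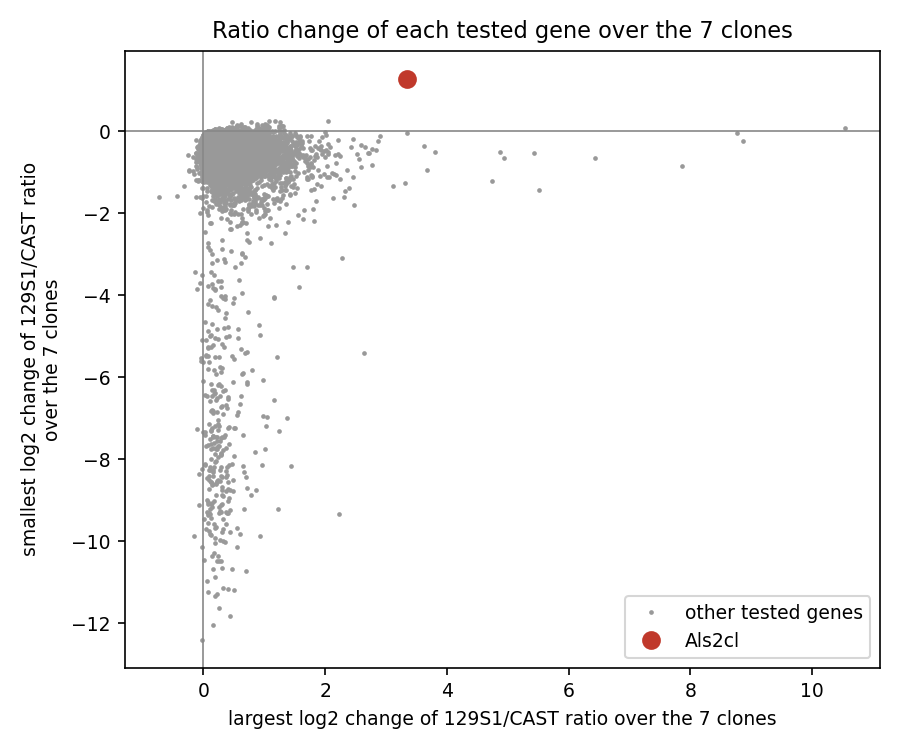
Each point is a gene tested for the allelic ratio, placed by its largest (horizontal axis) and smallest (vertical axis) log2 change of the 129S1/CAST ratio over the 7 clones. Als2cl, in red, has a smallest change of 1.28, against 0.27 for the gene next in order.

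On chromosome 9, none of the 8 nearest tested genes before Als2cl had a called ratio in any clone, while among those after it the calls lay in the d3 and d6 clones. Before it lie Scap, which escorts SREBP to the Golgi, 5830462I19Rik, Ptpn23, Klhl18, Setd2, the histone H3 lysine 36 methyltransferase, Nradd, Nbeal2 and Ccdc12. In each of the 7 clones 0 of these 8 had a called ratio in edgeR's test (0 at an unadjusted p under 0.05), and their log2 changes ran from -0.75 to 0.78. Over the other 583 tested genes of chromosome 9 the median change was -0.01 to 0.00 in every clone. The share of all genes called was 0.0463% and 3.41% for d3 clones 12 and 21, 0.0463% for the d6 clone, 0.00926% and 2.33% for i7 clones 7 and 12, 0.00926% for the i12 clone and 0% for the i10 clone.

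Among the 8 genes after Als2cl, 4 had a called ratio in both d3 clones and in the d6 clone, all with less CAST. Tdgf1 encodes the Nodal co-receptor Cripto and starts the run, from 110939603 to 110946158. Its log2 ratio rose by 3.35 (SE 0.225), 3.24 (SE 0.225) and 2.99 (SE 0.224), with edgeR adjusted p of 1.22e-08, 4.15e-10 and 8.86e-08. For Lrrc2, a leucine-rich repeat gene at 110951545 to 110984066, the rises were 8.86, 7.86 and 8.59, and for Epm2aip1, which encodes a protein that binds laforin, at 111271929 to 111279093, they were 8.64, 10.5 and 7.48 (edgeR adjusted p from 4.97e-09 to 9.54e-13). Lrrfip2, between them, had values of 1.19, 1.36 and 1.41 that did not pass (edgeR adjusted p = 0.844, 0.111 and 1). Without d3 parental replicate 1 it was called in d3 clone 21 (edgeR adjusted p = 0.0387). Pdcd6ip, Clasp2 and Ubp1, the furthest of the 8, start 2772 to 3051 kb after the start of Als2cl. Their changes in the d3 and d6 clones were -0.19 to 0.15, and none was called. For the 4 clones of i7, i12 and i10, 0 of the 8 were called (0 at an unadjusted p under 0.05), with changes of -0.54 to 0.48.

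**Figure D4:**
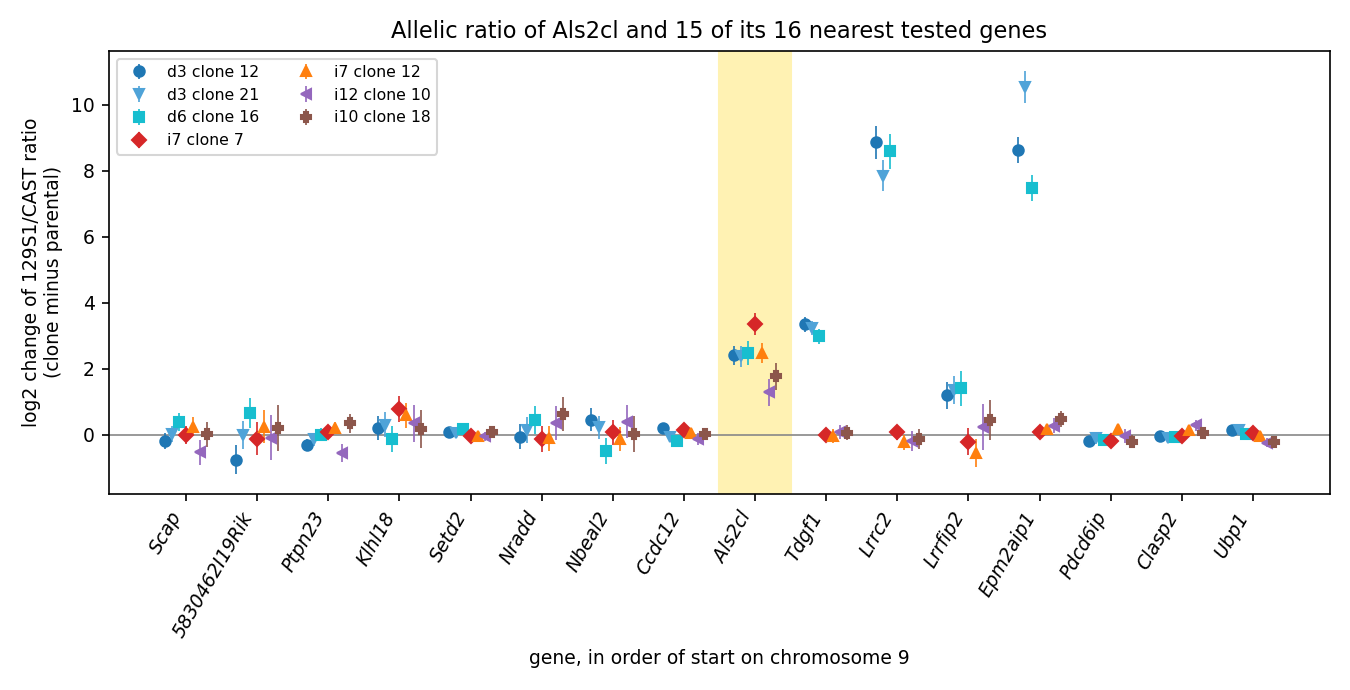
Log2 change of the 129S1/CAST ratio (clone minus parental, bars are SEs) for Als2cl, shaded, and 15 of its 16 nearest tested genes, in order of start on chromosome 9. Als2cl lies between 1.28 and 3.35 in all 7 clones, whereas Tdgf1, Lrrc2 and Epm2aip1 are raised in the d3 and d6 clones and lie near 0 in the i7, i12 and i10 clones.

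The amount of CAST RNA left also differed along this run. Lrrc2 had 1, 2 and 1 CAST counts over the replicates of the d3 clones 12 and 21 and the d6 clone, beside 840, 709 and 685 from 129S1. Epm2aip1 had 1, 0 and 2 CAST counts in these clones, beside 479, 441 and 373. Als2cl had 53, 40 and 27 CAST counts beside 316, 234 and 204, so its CAST RNA was reduced and still detected. For Tdgf1, 1044, 912 and 863 CAST counts remained, and its CAST level was 8.78%, 8.30% and 9.99% of the parental line, where that of Als2cl was 22.4%, 17.9% and 13.8%. In the i7, i12 and i10 clones the Tdgf1 CAST level was 81.1% to 110% of the parental line.

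Genes too low for the ratio test that touch or adjoin Als2cl were looked at after their values were seen, and carry no test. Tmie, on the minus strand from 110865711 to 110880113, overlaps the first 244 bases of Als2cl and had 71 counts in all. Its CAST counts summed to 22 in the parental lines, with at least 1 in each of the 5, and to 0 in all 7 clones, while its 129S1 counts summed to 17 and 32. In i12 this rests on 1 CAST count in the parental line and 1 129S1 count in i12 clone 10. Gm43127, on the minus strand inside Als2cl (110893111 to 110895899), had 43 CAST counts in the parental lines and 12 in the clones, against 38 and 80 from 129S1. The loss was not uniform, since i12 clone 10 had 4 CAST beside 6 129S1 counts of Gm43127. Prss50, which ends before Tmie (110857967 to 110864629), had 51 and 29 CAST counts and 31 and 83 129S1 counts. In i7 it had 22 CAST counts in the parental line, 1 in i7 clone 7 and 7 in i7 clone 12. In d6, i12 and i10, Prss50 had 0 to 3 counts per allele and line, too few to read. Prss42 and Prss45, further before Als2cl, had 34 and 17 CAST counts in the parental lines and 16 and 7 in the clones. Their 129S1 counts were 15 and 2 in the parental lines and 44 and 9 in the clones. By line, Prss42 CAST counts went from 16 to 3 and 0 in i7 clones 7 and 12, and from 8 to 0 in d6. They went from 6 to 5 and 2 in d3 clones 12 and 21, from 3 to 4 in i12 and from 1 to 2 in i10. In i12 clone 10, Prss42 had 4 CAST and 0 129S1 counts. Prss45 had 0 to 6 CAST counts per line, too few to read. For comparison, Als2cl sums were 765 and 255 CAST and 917 and 1603 129S1 counts, with 10 parental and 14 clone libraries behind each pair. Whether the counting used the strand is not given in the sources used here, so reads of Als2cl and of genes on the other strand may have been mixed where they overlap.

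Among genes that work with Rab5, 1 gene, Appl1, was called before any setting was changed, and in d3 clone 21 only. Per kilobase of exon, the parental level of Als2cl was 3.95 ± 1.33 CPM (SD, n = 10). The list of 26 VPS9 domain, Rab5 and early endosome genes, which includes the exchange factors Rabgef1, Gapvd1 and Rin1 to Rin3, the GTPases Rab5a, Rab5b and Rab5c and the tether Eea1, had 0 calls in 182 tests of total counts, with 4 at an unadjusted p under 0.05 and 0 calls by DESeq2. Its median log2 change was 0.01 to 0.06 per clone, against -0.02 to 0.03 for all genes, and the share of all genes called was 0.0123% and 0.0554% for d3 clones 12 and 21, 0.0123% for the d6 clone, 0% and 0.0246% for i7 clones 7 and 12, and 0% for the i12 and i10 clones. Without d3 parental replicate 1 there were 3 calls, among them Eea1 in both d3 clones. In the allelic ratio 1 of 168 tests was called: Appl1, a Rab5 effector on chromosome 14, changed the opposite way in d3 clone 21, by -4.65 (SE 0.164, edgeR adjusted p = 4.83e-15), its CAST share going from 42.7% to 95.04%. The Appl1 CAST level changed by 1.08 (edgeR adjusted p = 0.0143) and its 129S1 level by -3.58 (edgeR adjusted p = 1.76e-09). In that clone 1 of 24 listed genes tested was called in the ratio, beside 3.41% of all genes. Calls over all genes there were 83 of 13966 in CAST level and 362 of 13816 in 129S1 level. Without d3 clone 12 replicate 1, Rab5a was called as well, in d3 clone 12.

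The genes whose pattern over the 24 libraries was most like that of Als2cl resembled it only loosely. In log2 CAST CPM the 5 highest Pearson correlations were with Nradd (0.63), Engase (0.58), Taco1 (0.57), Gm37795 (0.56) and Pgls (0.55), and the middle gene of all stood at -0.04. In the log2 ratio they were with Sem1 (0.63), Hcfc1r1 (0.62), Aurka (0.62), Bri3bp (0.61) and Ndufb2 (0.60), with the middle gene at -0.01. Nradd, one of the 8 genes before Als2cl, was the only 1 of the 10 on chromosome 9. The libraries behind each correlation share their depth and their replicate number, and the ratio changes of these 10 genes ran from -0.49 to 1.04.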

How the data were processed

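The authors deposited a table of raw counts, whole numbers per gene, with a 129S1 and a CAST column for each of 24 libraries, per the file headers. STAR, SAMtools and mm10 are named in the submitters' processing notes. The counting program, the annotation, the use of strand and the treatment of reads without a strain variant are not given in the sources used here. Libraries were poly(A)-selected, stranded and read from 1 end, per the labels' protocols. Of 48985 identifiers, 48838 matched GENCODE M21 without the version number, and positions are from it.

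Groups followed the sample titles. edgeR 4.0.16 (R 4.3.3) was fitted to total counts (16239 genes, filterByExpr), CAST counts (13966), 129S1 counts (13816) and the allelic ratio (10795 genes averaging 10 or more counts on each allele), each on all 24 libraries with 12 residual degrees of freedom. TMM factors came from total counts. The ratio fit held 1 term for each library and an allele term for each group. Quasi-likelihood tests were adjusted by Benjamini-Hochberg, and genes with an adjusted p under 0.05 were called. The scripts were tested on simulated data. p-values rest on the spread between the 2 replicates of a line, pooled over all 12 lines and shared between genes. They do not follow the spread of the lines compared, which differed. The CAST SD of Als2cl was 8.10 CPM in the i10 parental line and 0.0600 in the i7 parental line. DESeq2 1.42.0 served as an alternative, and Python 3.11.15 with pandas 2.3.3 and scipy 1.17.1 for the rest.

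The promoter sequence is from RefSeq (GRCm38.p6), matched by symbol. The gene and all lists were chosen with earlier results of these data known. Named genes were Als2cl, its 8 nearest tested genes on each side, called genes of the Rab5 list and the 5 genes most correlated with Als2cl in CAST level and in ratio. Any other was named after its values were seen. The values of 1 of the 16 neighbours and of 1 gene of the Rab5 list are not reported here.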

Additional observations from a re-analysis of the deposited data

How the results depend on the processing

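Of 441 values recomputed for 49 results, 429 were labelled as kept. Clone against clone values had to keep their direction and side of the threshold, and counts of calls to stay within 1.5 times. Clone against parental values had to move by less than the replicate SD of both lines combined, whatever their sign. Leaving out 1 of 2 replicates moves a group mean by less than its SD, so these labels were nearly fixed in advance. The total change of i10 clone 18 turned from -0.57 to 0.20 and counted as kept. The other 12 of the 441 came from leaving out 1 library, apart from 1 that came from the replicate block. Leaving out 1 library turned the sign of clone against clone differences, none of them called: over such omissions d3 clone 21 minus d3 clone 12 ran from -0.65 to 0.018 in total, -0.75 to 0.073 in CAST, -0.63 to 0.0076 in 129S1 and -0.13 to 0.13 in the ratio, and i7 clone 12 minus i7 clone 7 from -0.11 to 0.30 in total and -0.20 to 0.21 in 129S1. The ratio change of Als2cl kept its sign in all 7 clones, at 1.08 to 1.39 in i12 clone 10, 1.27 to 2.13 in i10 clone 18 and 2.98 to 4.08 in i7 clone 7. In i10 clone 18 the CAST change was -0.71 to -2.48 and the total change 0.20 to -1.11. In i12 clone 10 they were -0.96 to -2.72 and -0.07 to -2.05. Calls in the Rab5 list ranged from 0 to 3 in total (3 without d3 parental replicate 1, Eea1 in both d3 clones among them) and from 1 to 2 in the ratio (2 without d3 clone 12 replicate 1, in Rab5a). A lone replicate was assumed to vary like the other groups. With a replicate block, the Rab5 list had 2 calls in total, Rab21 and Rab31 in i7 clone 12, and the ratio changes of Als2cl were 1.30 to 3.35. Calls among the neighbours in d3 clone 21 went from 4 to 5 with the block, adding Lrrfip2 (1.35, edgeR adjusted p = 0.0308), and also without d3 parental replicate 1. Over all genes, total calls in i7 clone 12 were 4 without the block and 1025 with it, and ratio calls in d6 clone 16 were 5 and 31. The shared replicate numbers are not stated to mark shared handling. Replicate differences correlated at 0.36 to 0.69 within a recombination (9 pairs of lines) and at -0.20 to 0.60 between recombinations (57 pairs). Counts of 6 to 31 CAST reads per clone library limit the precision of every Als2cl value.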
